A study of Mus musculus with 6 samples.

Results

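The 33 genes of sterol and fatty acid synthesis were followed in differentiating C2C12 cells, a mouse myoblast line whose cells fuse into myotubes after serum withdrawal. They were taken by name from a list of enzymes of the mevalonate, cholesterol and fatty acid pathways and of the Srebf regulators, and all 33 were found among the 17558 genes of the deposited table. The list does not hold every enzyme of these pathways. Each of the 33 genes had at least 122 estimated counts in every library, so none was lost to the filter on low counts.

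RNA was sequenced in 3 groups of 2 libraries, all taken 48 h after the change to a differentiation medium that held horse serum and a supplement of insulin, transferrin and selenium. The control group, given as wild type in the labels, stably carried a hairpin RNA of scrambled sequence (shScr). The remaining groups stably carried a hairpin RNA against the Pkm1 isoform (shPkm1) or the Pkm2 isoform (shPkm2) of the pyruvate kinase gene Pkm, and are given as Pkm1 or Pkm2 knockdown. The comparisons ask how transcripts of differentiating myoblasts differ when either isoform is targeted. The number of hairpin sequences, and whether cells were pools or single clones, are not given in the sources used here. Nothing in the labels says that the libraries of a group came from separate cultures, so p-values measure the spread between these libraries, which may be technical.

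Cholesterol and other isoprenoids are built from acetyl-CoA through mevalonate and squalene, and fatty acids from acetyl-CoA through malonyl-CoA. Both pathways are switched on by the sterol regulatory element binding proteins, which the genes Srebf1 and Srebf2 encode. The precursors are held in the endoplasmic reticulum with the escort protein Scap, which Insig proteins retain when sterols are plentiful. When sterols are scarce, Scap carries the precursors to the Golgi, where they are cut and the freed part enters the nucleus. The Srebf2 product is best known for driving sterol genes and the Srebf1 products for fatty acid genes. Myoblasts that fuse also remodel their membranes, and the desaturases and elongases set which fatty acids are built into them.

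Libraries held 18216896 to 19796036 estimated counts. Values are given below as CPM, counts scaled to a library size of 1e6 with trimmed-mean factors (TMM), or as TPM, which is also scaled to transcript length and allows levels of different genes to be compared. Changes are log2 fold changes of the TMM-scaled fit with their standard error (SE). The Pkm1 isoform was at 969 ± 15.6 CPM (SD, n = 2) in shScr and 307 ± 10.4 in shPkm1, a change of -1.66 (adjusted p 0.00272, SE 0.0765), and it was lower in the shPkm2-labelled libraries too, at 324 ± 14.3 CPM and a change of -1.58 (adjusted p 0.00124, SE 0.0763). For the Pkm2 isoform the level was 2197 ± 382 CPM in shScr, as against 1776 ± 169 for shPkm1 and 3391 ± 86.0 for the shPkm2 label. The log2 fold change was -0.31 (adjusted p 0.322, SE 0.161) in shPkm1 and 0.63 (adjusted p 0.0656, SE 0.161) in the shPkm2-labelled libraries against shScr, and 0.93 (adjusted p 0.0390, SE 0.162) directly between them. How reads that both Pkm isoforms share were divided is not given in the sources used here, and these levels rest on that division. As deposited, the targeted isoform was not lower in the shPkm2-labelled libraries, and results for that group are given by the label of its libraries. Other features of the libraries moved with the groups. Summed over a list of 10 myotube genes, including Ckm, Myog and Acta1, the level was 42336 and 29614 CPM in shScr, 11952 and 13630.4 in shPkm1 and 1401 and 1342 in the shPkm2-labelled libraries. For 8 genes of proliferating cells, including Mki67 and Top2a, the sums were 334 and 407 CPM for shScr, 708 and 723 for shPkm1 and 2085 and 1940.1 for the shPkm2 label. In bulk RNA, fewer cells of a type and less RNA per cell cannot be told apart. The part that the lower myotube and higher proliferation levels have in the results below was not tested.

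Fat cells also use these pathways, and 10 adipocyte markers were examined for that reason. The defining markers Adipoq, Plin1, Lep, Retn and Cfd had at most 1 count in any library, and Fabp4 at most 7. Only 3 of the 9 adipocyte markers in the data passed the filter. Pparg, Cebpa and Lipe, which other cells express too, were at 33 to 89, 182 to 551 and 109 to 247 counts, and their sum with the rest of the list ran from 21.3 to 22.0 CPM in shScr, 40.4 to 44.4 in shPkm1 and 31.1 to 35.3 in the shPkm2-labelled libraries. Summed levels of 6 fibroblast markers were 4503 and 4869 CPM in shScr, 17217 and 17702 in shPkm1 and 2532 and 2284 in the shPkm2-labelled libraries, nearly all of it from the collagen genes Col1a1 and Col3a1. Pdgfra, on the same list, differed from that sum, at 5.13 and 7.23 CPM in shScr, 29.9 and 31.3 in shPkm1 and 34.6 and 33.8 with the shPkm2 label. Of the 4 fibroblast markers tested, 4 were higher in shPkm1, and 1 was higher and 3 lower in the shPkm2-labelled libraries, where 31.8% of all tested genes were higher in the first comparison and 33.9% higher and 34.2% lower in the second. Thy1 and Lum, also on that list, had at most 1 and 5 counts. The leukocyte markers in the data, Cd68 and Csf1r, summed to at most 3.78 CPM in any library.

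In shPkm1, most of the pathway stood higher than in shScr. Of the 33 genes, 23 rose and 3 fell at an adjusted p under 0.05 in the edgeR quasi-likelihood test, against 31.8% of all 12643 tested genes higher, 31.4% lower and 63.1% called in either direction. The median log2 fold change of the 33 genes was 0.62, and that of all tested genes was -0.00015. A rise of at least 2-fold was seen in 9 genes, against 12.6% of tested genes: Insig1, Hmgcs1, Idi1, Sc5d, Stard4, Elovl6, Scd1, Fads1 and Fads2. The 3 genes that fell were Scap, Mvd and Dhcr7, and 0 of the 33 fell at least 2-fold, against 9.41% of tested genes. With library totals 25 were higher and 3 lower, against 40.5% and 21.0% of tested genes.

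In the shPkm2-labelled libraries the same genes split. Here 7 rose and 15 fell against shScr, with 33.9% of tested genes higher, 34.2% lower and 68.0% called either way. By at least 2-fold, 4 rose and 4 fell, against 14.1% and 13.7% of tested genes. The genes that rose were the elongase Elovl6, the desaturases Scd1, Scd2, Fads1 and Fads2, the sterol carrier Stard4 and Sc5d. The genes that fell were 12 enzymes of the mevalonate and sterol arms, together with Acss2, Scap and Srebf2. The median over the 33 genes was -0.15. This split depends on the scaling: with library totals in place of TMM, the median of all tested genes moved from 0.01 to 0.33, 15 of the 33 genes were higher and 8 lower, and their median was 0.18. On that scale 48.2% of tested genes were higher and 21.4% lower. The number that rose was 4 without shPkm2 replicate 1 and 4 without shPkm2 replicate 2, against 27.7% and 29.1% of tested genes.

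Set directly against shPkm1, the shPkm2-labelled libraries had 23 of the 33 genes lower and 3 higher, against 27.3% and 25.7% of tested genes (53.0% either way). Their median was -0.80. A 2-fold or larger difference separated 11 of the lower genes and 0 of the higher genes, against 11.5% and 7.07% of tested genes. With library totals the counts were 21 lower and 3 higher, against 21.3% and 33.9%. The 3 genes called higher were Scap, Acly and Elovl6, and that count was 0 without shPkm1 replicate 1 and 0 without shPkm2 replicate 1, against 18.3% and 17.3% of tested genes. In limma on log2(TPM + 1), which sets libraries to a common TPM total without TMM, all tested genes had a median of 0.34 in shPkm1, 0.40 in the shPkm2-labelled libraries and 0.069 between them. That fit called 26 of the 33 genes higher and 2 lower in shPkm1, against 50.5% and 13.9% of tested genes. In the shPkm2-labelled libraries it called 16 higher and 8 lower, against 54.1% and 16.8%, and in the direct contrast 2 higher and 21 lower, against 26.7% and 22.1%. The heat map of single libraries shows the pattern gene by gene.

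**Figure D1:**
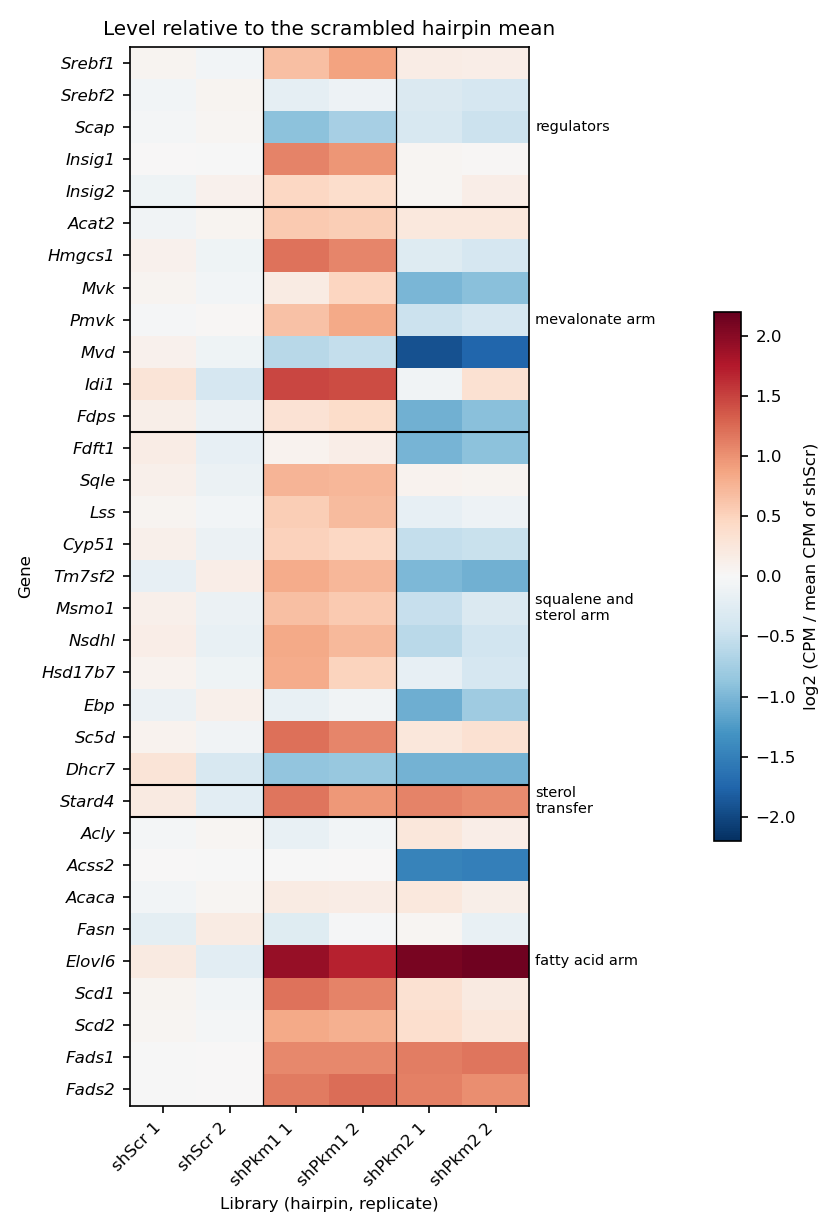
Level of each of the 33 genes (rows, grouped by role) in each of the 6 libraries (columns), as log2 of its TMM-scaled CPM over the mean CPM of the shScr libraries (red above, blue below). Columns of shPkm1 are red for most rows, while those labelled shPkm2 are blue for most mevalonate and sterol genes and red for Stard4, Elovl6, Fads1 and Fads2; with library totals, the blue of Hmgcs1 against shScr turns to a log2 fold change of 0.01.

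The regulators did not move as 1 block. Srebf1, whose products drive fatty acid genes, stood at 109.9 and 102 CPM in the shScr libraries, 167 and 196 in shPkm1, and 119 and 117 in those with the shPkm2 label. Both shPkm1 libraries lay above the other 4. The log2 fold change against shScr was 0.78 (adjusted p 3.19e-05, SE 0.106) in shPkm1 and 0.16 (adjusted p 0.207) in the shPkm2-labelled libraries, and the direct difference between the Pkm hairpin groups was -0.62 (adjusted p 2.40e-04, SE 0.105). With library totals the change in the shPkm2-labelled libraries was 0.48 (adjusted p 0.00102), and in limma on log2(TPM + 1) it was 0.60 (adjusted p 2.69e-04). Srebf2, whose product drives sterol genes, stood at 429 and 466 CPM in the shScr libraries, 391 and 413 in shPkm1, and 360.0 and 346 in those with the shPkm2 label. Its groups did not overlap but lay close together. It was not called in shPkm1, at -0.15 (adjusted p 0.210), and was lower by a log2 fold change of -0.34 (adjusted p 0.00986, SE 0.103) in the shPkm2-labelled libraries. That call was lost with library totals, at -0.017 (adjusted p 0.893), and without shPkm2 replicate 1 (-0.36, adjusted p 0.0530) or 2 (-0.31, adjusted p 0.0914), and the direction turned in limma on log2(TPM + 1), at 0.10 (adjusted p 0.436).

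Srebf1 (gene 20787, chr11:60199084-60224186 in GRCm38) has several transcripts in the table, which splits its counts among them. Transcript XM_006532715.2 stood at 58.9 and 55.9 CPM in shScr, 138 and 153 in shPkm1 and 70.9 and 59.0 in those with the shPkm2 label. Its share of all Srebf1 counts was 54.9% for shScr, 79.4% in shPkm1 and 54.6% in the shPkm2-labelled libraries. Transcript NM_011480.4 stood at 28.3 and 40.1 CPM in shScr, 21.2 and 34.3 in shPkm1 and 40.1 and 51.3 in those with the shPkm2 label. In a fit over 33433 transcripts the first was higher in shPkm1 than in shScr by 1.34 (adjusted p 0.00832, SE 0.119), and the second was not called, at -0.30 (adjusted p 0.633, SE 0.310). Between the Pkm hairpin groups the first was lower in the shPkm2-labelled libraries at -1.16 (adjusted p 0.0106, SE 0.118). Reads that fit several transcripts were divided among them by the authors' counting, on which these shares rest.

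Scap, the escort of the precursors, stood at 75.4 and 79.5 CPM in the shScr libraries, 41.5 and 46.4 in shPkm1, and 60.5 and 55.5 in those with the shPkm2 label. No library of a Pkm hairpin group reached the shScr level. It fell in shPkm1, at -0.82 (adjusted p 1.55e-05, SE 0.102), and in the shPkm2-labelled libraries, at -0.42 (adjusted p 0.00241, SE 0.101), and the second change was -0.093 (adjusted p 0.460) with library totals and turned to 0.041 (adjusted p 0.793) in limma on log2(TPM + 1). In the direct contrast Scap was higher in the shPkm2-labelled libraries, at 0.40 (adjusted p 0.00499), a call lost without shPkm1 replicate 1 (0.31, adjusted p 0.0850) or shPkm2 replicate 1 (0.33, adjusted p 0.0804). Insig1, which encodes a protein that retains Scap and is itself a known Srebf target, stood at 25.6 and 25.4 CPM in the shScr libraries, 54.1 and 49.9 in shPkm1, and 26.4 and 25.9 in those with the shPkm2 label. Levels in shPkm1 were above those of every other library, with a log2 fold change of 1.03 (adjusted p 2.04e-06, SE 0.102) against shScr and -0.99 (adjusted p 2.67e-06, SE 0.101) for the shPkm2-labelled libraries against shPkm1. Against shScr the change in the shPkm2-labelled libraries was 0.036 (adjusted p 0.772), or 0.36 (adjusted p 0.0126) with library totals and 0.46 (adjusted p 0.00540) in limma on log2(TPM + 1). Insig2, the second retention protein, stood at 25.7 and 29.4 CPM in the shScr libraries, 37.7 and 36.3 in shPkm1, and 28.4 and 30.6 in those with the shPkm2 label. It rose in shPkm1, at 0.42 (adjusted p 0.00448, SE 0.109), and was not called in the shPkm2-labelled libraries, at 0.097 (adjusted p 0.447), but was called higher there with library totals, at 0.42 (adjusted p 0.00848), and in limma on log2(TPM + 1), at 0.52 (adjusted p 0.00385). The direct difference of -0.32 (adjusted p 0.0216) was lost when any library of the compared groups was left out, the adjusted p then running from 0.0528 to 0.157. It was also lost with library totals (-0.19, adjusted p 0.191), DESeq2 (-0.33, adjusted p 0.0516) and limma on log2(TPM + 1) (-0.26, adjusted p 0.138).

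The mevalonate and sterol arms hold 18 of the 33 genes. In shPkm1, 14 of them rose and 2 fell, with a median log2 fold change of 0.62, where 31.8% and 31.4% of all tested genes rose and fell. In the shPkm2-labelled libraries, 1 rose and 12 fell, with a median of -0.46, where the shares of all tested genes were 33.9% and 34.2%. With library totals 4 were higher and 7 lower there, against 48.2% and 21.4%, with a median of -0.14. In limma on log2(TPM + 1) 4 were higher and 7 lower there, against 54.1% and 16.8%, and the median was -0.0055 beside 0.40 over all tested genes. In the direct contrast 17 of 18 were lower in the shPkm2-labelled libraries, Dhcr7 being the exception, with a median of -1.05, against 27.3% of all tested genes. None was higher in the edgeR test, where the number at an unadjusted p under 0.05 was also 0, as it was with DESeq2. With library totals 16 of 18 were lower, against 21.3%.

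Summed TPM levels were close within each group. The 7 mevalonate arm genes summed to 482 and 475 TPM in the shScr libraries, 852 and 846 in shPkm1 and 375 and 382 in those with the shPkm2 label. The 11 squalene and sterol arm genes summed to 388 and 382, 669 and 626 and 347 and 356 TPM. In both sums the shPkm1 libraries were highest, those with the shPkm2 label lowest, and no groups overlapped. Fdps carried the largest share of the mevalonate sum, and without it both arms summed to 572 and 574 TPM in shScr, 1034 and 983 in shPkm1 and 522 and 529 in the shPkm2-labelled libraries. TPM is relative to the total of a library, with no TMM scaling. In TMM-scaled CPM the shScr libraries lay further apart. There the mevalonate arm summed to 570 and 497 in shScr, 767 and 785 in shPkm1 and 319 and 340 with the shPkm2 label. The squalene and sterol arm summed to 832 and 705, 991 and 983, and 499 and 530 CPM.

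**Figure D2:**
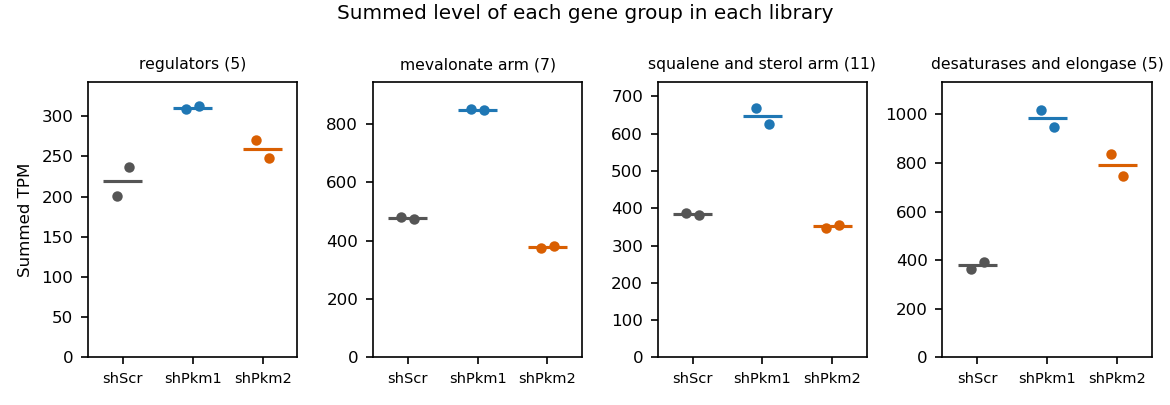
Summed TPM (vertical axes, starting at 0) of the regulators, the mevalonate arm, the squalene and sterol arm, and the desaturases with the elongase Elovl6, with the number of genes in brackets; points are single libraries and lines are group means. Both sterol sums are highest in shPkm1 and lowest in the shPkm2-labelled libraries, while the desaturase and elongase sum is above shScr in both Pkm hairpin groups.

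At the head of the mevalonate arm, Hmgcs1, which makes HMG-CoA, stood at 93.3 and 82.3 CPM in the shScr libraries, 201 and 184 in shPkm1, and 72.3 and 68.1 in those with the shPkm2 label. The shPkm1 libraries were far above the rest. The log2 fold change was 1.13 (adjusted p 9.41e-07, SE 0.104) in shPkm1 and -0.32 (adjusted p 0.0148, SE 0.104) in the shPkm2-labelled libraries, and -1.45 (adjusted p 9.04e-08, SE 0.104) directly between them. The fall against shScr was not seen with library totals, at 0.0071 (adjusted p 0.957), or in limma on log2(TPM + 1), at 0.13 (adjusted p 0.324), and was lost without shScr replicate 1 (-0.23, adjusted p 0.0620) or shPkm2 replicate 2 (-0.27, adjusted p 0.120). Acat2, which joins acetyl-CoA units, was higher in shPkm1, at 0.56 (adjusted p 2.74e-04, SE 0.0983), and was at 0.23 (adjusted p 0.0555) in the shPkm2-labelled libraries, or 0.55 (adjusted p 5.94e-04) with library totals, 0.67 (adjusted p 2.52e-04) in limma on log2(TPM + 1) and 0.30 (adjusted p 0.0189) without shScr replicate 2. The direct difference of -0.33 (adjusted p 0.0109) was lost with library totals, at -0.20 (adjusted p 0.133), in limma on log2(TPM + 1), at -0.26 (adjusted p 0.101), and without any 1 library of the compared groups, with an adjusted p of 0.0541 to 0.0751.

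The kinases and the decarboxylase that turn mevalonate into isopentenyl diphosphate took different courses. Mvk, mevalonate kinase, stood at 39.2 and 36.2 CPM in the shScr libraries, 42.6 and 52.3 in shPkm1, and 18.8 and 19.8 in those with the shPkm2 label. Libraries labelled shPkm2 were the lowest, at a log2 fold change of -0.96 (adjusted p 1.17e-05, SE 0.122) against shScr and -1.30 (adjusted p 1.11e-06, SE 0.120) against shPkm1. The rise in shPkm1, at 0.33 (adjusted p 0.0229), was lost without shPkm1 replicate 2, at 0.18 (adjusted p 0.253), and with DESeq2, at 0.33 (adjusted p 0.0504). Pmvk, phosphomevalonate kinase, stood at 25.3 and 26.0 CPM in the shScr libraries, 40.0 and 45.7 in shPkm1, and 18.5 and 19.8 in those with the shPkm2 label. It rose in shPkm1 by 0.74 (adjusted p 6.38e-05, SE 0.109) and was lower in the shPkm2-labelled libraries at -0.42 (adjusted p 0.00481, SE 0.114). That second call was lost with library totals, at -0.099 (adjusted p 0.473), and without shPkm2 replicate 1 (-0.37, adjusted p 0.0546), and turned in limma on log2(TPM + 1) (0.031, adjusted p 0.828). The direct difference was -1.16 (adjusted p 1.36e-06, SE 0.110). Mvd, the decarboxylase, stood at 67.2 and 58.6 CPM in the shScr libraries, 41.1 and 43.6 in shPkm1, and 16.7 and 18.8 in those with the shPkm2 label. Its order differed from that of its neighbours, with shScr highest and no overlap between groups. The log2 fold change was -0.57 (adjusted p 5.28e-04, SE 0.109) in shPkm1 and -1.82 (adjusted p 1.41e-08, SE 0.115) in the shPkm2-labelled libraries, the deepest fall among the 33 genes. In limma on log2(TPM + 1) the change in shPkm1 was -0.17 (adjusted p 0.199).

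Idi1, the isomerase of isopentenyl diphosphate, stood at 27.7 and 17.6 CPM in the shScr libraries, 62.9 and 61.5 in shPkm1, and 21.5 and 28.4 in those with the shPkm2 label. The 2 shScr libraries differed 1.58-fold, more than those of any other of the 33 genes in that group. The rise in shPkm1 of 1.46 (adjusted p 1.11e-05, SE 0.177) was the largest of the 2 sterol arms. In the shPkm2-labelled libraries the value was 0.15 (adjusted p 0.489). It was called higher with library totals, at 0.48 (adjusted p 0.0236), and in limma on log2(TPM + 1), at 0.57 (adjusted p 0.00481), and it was 0.51 (adjusted p 0.00143) without shScr replicate 1 and -0.15 (adjusted p 0.326) without shScr replicate 2. Fdps, farnesyl diphosphate synthase, had the highest TPM of the 33 genes in shScr, at 291 ± 10.4 TPM (SD, n = 2). In CPM it stood at 277 and 232 CPM in the shScr libraries, 317 and 336 in shPkm1, and 122 and 135 in those with the shPkm2 label. Levels in the shPkm2-labelled libraries were below every other library, with a log2 fold change of -0.98 (adjusted p 4.51e-06, SE 0.112), and of -1.34 (adjusted p 4.16e-07, SE 0.113) against shPkm1. The rise in shPkm1, at 0.36 (adjusted p 0.0123), was lost without shScr replicate 2 (0.24, adjusted p 0.0526) or shPkm1 replicate 2 (0.32, adjusted p 0.0896).

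Since most genes of both sterol arms stood higher in shPkm1 than in the shPkm2-labelled libraries, their promoters were read from the RefSeq table (GRCm38.p6), which matched 26 of the 33 genes and 15 of these 18. Each window ran from 250 bases before to 50 bases after a start site. The CCAAT motif, the core of sites bound by NF-Y, a factor known to act with the Srebf proteins, was searched on both strands. It was found in 14 of 15 genes (93.3%), against 37.4% of all 32851 windows and 43.8% of tested genes with a window. In the fatty acid arm it was found in 3 of 6 genes, in the regulators in 4 of 5, and in 21 of all 26 genes. The Sp1 motif GGGCGG was found in 14 of 15 genes, against 68.5% of tested genes. It was found in 3 of 6 genes of the fatty acid arm and in 5 of 5 regulators. The motif TCACNCCAC of the sterol regulatory element was found in 1 of the 15, Hmgcs1, against 1.38% of tested genes, and its shorter form CACNCCAC, which overlaps it, in 2 of the 15 (13.3%), Hmgcs1 and Acat2, against 7.59%. The E-box CACGTG was found in 3 of 15, against 11.6%. A gene with several start sites counted once if any window held the motif. Such matches describe the letters of these windows and are no evidence of binding.

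The 150 bases before the start site are shown for 6 sterol arm genes that were higher in shPkm1 than in the shPkm2-labelled libraries, and for Elovl6 and Fads2, which were higher in both Pkm hairpin groups than in shScr. Sequences are written 5′ to 3′ on the strand of the gene, with CCAAT (or ATTGG, the same motif on the other strand) and the sterol regulatory element in capitals.
Hmgcs1: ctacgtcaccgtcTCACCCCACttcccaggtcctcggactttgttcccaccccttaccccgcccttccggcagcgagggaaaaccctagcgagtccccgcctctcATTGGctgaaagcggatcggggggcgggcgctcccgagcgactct
Mvk: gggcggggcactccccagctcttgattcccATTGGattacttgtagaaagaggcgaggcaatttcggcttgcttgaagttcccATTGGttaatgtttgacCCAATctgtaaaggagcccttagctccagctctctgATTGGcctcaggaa
Idi1: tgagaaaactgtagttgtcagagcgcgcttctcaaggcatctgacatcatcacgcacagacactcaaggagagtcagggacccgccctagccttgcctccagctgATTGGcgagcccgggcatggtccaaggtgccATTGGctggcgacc
Nsdhl: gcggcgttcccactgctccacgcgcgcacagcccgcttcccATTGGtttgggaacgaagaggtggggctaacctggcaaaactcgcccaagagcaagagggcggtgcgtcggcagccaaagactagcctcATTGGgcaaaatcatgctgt
Msmo1: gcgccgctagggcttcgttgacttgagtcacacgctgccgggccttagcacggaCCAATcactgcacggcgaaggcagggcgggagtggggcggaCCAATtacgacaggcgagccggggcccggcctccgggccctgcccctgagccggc
Cyp51: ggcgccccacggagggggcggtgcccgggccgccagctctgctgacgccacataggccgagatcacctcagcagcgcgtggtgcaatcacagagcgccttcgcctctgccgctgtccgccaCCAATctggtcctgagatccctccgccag
Elovl6: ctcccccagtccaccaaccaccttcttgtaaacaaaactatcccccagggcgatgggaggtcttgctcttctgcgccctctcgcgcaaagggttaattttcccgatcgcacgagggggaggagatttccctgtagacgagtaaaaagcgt
Fads2: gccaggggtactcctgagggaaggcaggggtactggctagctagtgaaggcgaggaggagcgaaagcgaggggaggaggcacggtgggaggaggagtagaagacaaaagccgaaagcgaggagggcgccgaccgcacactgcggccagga
These stretches lie at chr13:119690201-119690350 (plus strand, Hmgcs1), chr5:114444119-114444268 (plus, Mvk), chr13:8885456-8885605 (plus, Idi1), chrX:72918371-72918520 (plus, Nsdhl), chr8:64733579-64733728 (minus, Msmo1), chr5:4104698-4104847 (minus, Cyp51), chr3:129532236-129532385 (plus, Elovl6) and chr19:10101504-10101653 (minus, Fads2). Mvk holds 4 CCAAT motifs in its stretch, Idi1, Nsdhl and Msmo1 hold 2 each, and Hmgcs1 and Cyp51 hold 1 each. Those of Elovl6 and Fads2 hold 0. The genes shown were picked by hand, and others depart from this contrast. In the fatty acid arm Acly, Acss2 and Fasn hold CCAAT in a window. Dhcr7, not called in the direct contrast, and Mvd, lower in shPkm1 than in shScr, hold it too. Acat2, called lower in the direct contrast, does not.

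Past farnesyl diphosphate, Fdft1 makes squalene and stood at 245 and 195 CPM in the shScr libraries, 233 and 245 in shPkm1, and 108 and 117 in those with the shPkm2 label. Libraries labelled shPkm2 were lowest, at -0.96 (adjusted p 8.39e-06, SE 0.118) against shScr and -1.08 (adjusted p 4.93e-06, SE 0.118) against shPkm1, and shPkm1 was not called against shScr (0.12, adjusted p 0.391). With library totals that last change was 0.32 (adjusted p 0.0206), in limma on log2(TPM + 1) it was 0.51 (adjusted p 7.90e-04), and without shScr replicate 1 it was 0.29 (adjusted p 0.0158). Sqle, squalene epoxidase, a rate-limiting step, stood at 86.1 and 72.8 CPM in the shScr libraries, 133 and 132 in shPkm1, and 83.6 and 83.3 in those with the shPkm2 label. It rose in shPkm1, at 0.74 (adjusted p 4.16e-05, SE 0.103), with 0.072 (adjusted p 0.553) in the shPkm2-labelled libraries and a direct difference of -0.66 (adjusted p 1.14e-04, SE 0.102). With library totals Sqle was also higher in the shPkm2-labelled libraries, at 0.40 (adjusted p 0.00328), as it was in limma on log2(TPM + 1), at 0.52 (adjusted p 6.39e-04). Lss and Cyp51, which close the ring and remove its first methyl group, ran from 25.8 to 47.3 CPM and from 91.0 to 185 CPM. Lss changed by 0.62 (adjusted p 2.12e-04, SE 0.106) in shPkm1 and was at -0.15 (adjusted p 0.231) in the shPkm2-labelled libraries. Cyp51 changed by 0.48 (adjusted p 0.00125, SE 0.104) and -0.50 (adjusted p 7.76e-04, SE 0.104), the latter not called with library totals, at -0.18 (adjusted p 0.141), or in limma on log2(TPM + 1), at -0.044 (adjusted p 0.739).

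Tm7sf2, a sterol C14 reductase, stood at 10.7 and 13.4 CPM in the shScr libraries, 21.4 and 20.1 in shPkm1, and 6.07 and 5.82 in those with the shPkm2 label. The 3 groups did not overlap, and the direct difference of -1.80 (adjusted p 3.14e-07, SE 0.147) was the largest between the Pkm hairpin groups among the 33 genes. Against shScr it changed by 0.77 (adjusted p 3.20e-04, SE 0.139) in shPkm1 and -1.02 (adjusted p 5.41e-05, SE 0.154) in the shPkm2-labelled libraries, the latter -0.51 (adjusted p 0.0552) in limma on unfiltered log2(TPM + 1). Msmo1 and Nsdhl, which with Hsd17b7 remove the methyl groups at carbon 4, followed the same order. Msmo1 stood at 55.5 and 47.0 CPM in the shScr libraries, 81.1 and 76.3 in shPkm1, and 36.2 and 41.2 in those with the shPkm2 label. Nsdhl stood at 80.2 and 64.1 CPM in the shScr libraries, 129 and 119 in shPkm1, and 47.6 and 54.1 in those with the shPkm2 label. For each the shPkm1 libraries were highest and those with the shPkm2 label lowest, and no groups overlapped. Msmo1 changed by 0.62 (adjusted p 3.20e-04, SE 0.111) in shPkm1 and Nsdhl by 0.78 (adjusted p 8.41e-05, SE 0.119). In the shPkm2-labelled libraries the changes were -0.40 (adjusted p 0.00635) and -0.50 (adjusted p 0.00225), and with library totals -0.075 (adjusted p 0.563) and -0.17 (adjusted p 0.198). In limma on log2(TPM + 1) neither was called, with Msmo1 turned to 0.052 (adjusted p 0.700) and Nsdhl at -0.042 (adjusted p 0.760). Without shPkm2 replicate 1 the Msmo1 change was -0.31 (adjusted p 0.0943), and without shScr replicate 1 that of Nsdhl was -0.33 (adjusted p 0.00709). Directly between the Pkm hairpin groups they were -1.02 (adjusted p 5.17e-06) and -1.28 (adjusted p 1.22e-06). Hsd17b7, at 168 to 343 counts per library, rose in shPkm1 by 0.66 (adjusted p 0.00208, SE 0.153) and was at -0.28 (adjusted p 0.140) in the shPkm2-labelled libraries.

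In the last steps of cholesterol synthesis, Ebp, the sterol isomerase, ran from 38.2 to 87.1 CPM, fell in the shPkm2-labelled libraries at -0.92 (adjusted p 1.67e-05, SE 0.121) and was not called in shPkm1 (-0.12, adjusted p 0.391). Sc5d, the C5 desaturase, stood at 18.6 and 16.7 CPM in the shScr libraries, 41.0 and 37.4 in shPkm1, and 20.9 and 22.2 in those with the shPkm2 label. It rose in shPkm1 by 1.15 (adjusted p 1.87e-06, SE 0.113) and was the 1 gene of both arms called higher in the shPkm2-labelled libraries, at 0.29 (adjusted p 0.0401, SE 0.116). That call was lost with DESeq2 (0.28, adjusted p 0.112), in a fit of only the compared groups (0.29, adjusted p 0.0529) and without shScr replicate 2 (0.21, adjusted p 0.164), shPkm2 replicate 1 (0.34, adjusted p 0.0781) or shPkm2 replicate 2 (0.25, adjusted p 0.183). Dhcr7, which makes cholesterol from 7-dehydrocholesterol, stood at 79.8 and 51.5 CPM in the shScr libraries, 36.0 and 37.0 in shPkm1, and 32.0 and 32.1 in those with the shPkm2 label. All 4 libraries of the Pkm hairpin groups lay below both shScr libraries, which differed 1.55-fold. The changes were -0.84 (adjusted p 4.53e-04, SE 0.158) in shPkm1 and -1.03 (adjusted p 6.74e-05, SE 0.159) in the shPkm2-labelled libraries, or -0.50 and -0.69 without shScr replicate 1. In limma on unfiltered log2(TPM + 1) the shPkm1 change was -0.42 (adjusted p 0.0783). The direct difference was -0.19 (adjusted p 0.337), with a 95% interval of -0.54 to 0.16.

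**Figure D3:**
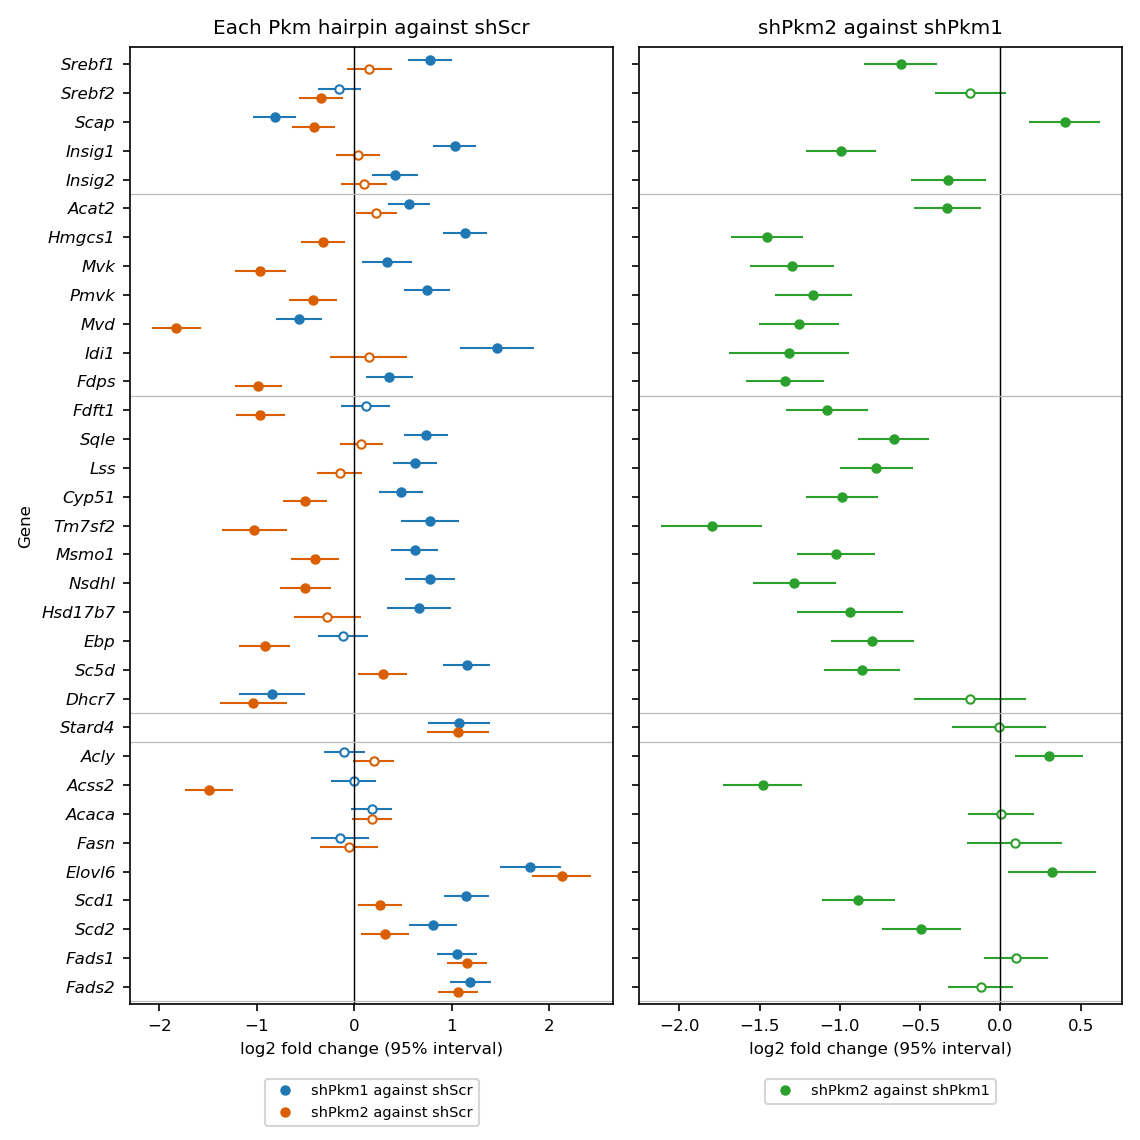
Log2 fold change (horizontal axes) of each of the 33 genes with its 95% interval from the edgeR fit, for shPkm1 and the shPkm2-labelled libraries against shScr (left) and for the shPkm2-labelled libraries against shPkm1 (right); filled points passed an adjusted p of 0.05 and open points did not. On the right, every mevalonate and sterol gene but Dhcr7 is a filled point left of 0, and with library totals Acat2 there is not called; on the left, several falls in the shPkm2-labelled libraries are not called with library totals.

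Stard4, a soluble protein that moves cholesterol between membranes, rose in both Pkm hairpin groups. It stood at 13.7 and 10.2 CPM in the shScr libraries, 27.0 and 23.1 in shPkm1, and 25.3 and 24.4 in those with the shPkm2 label. The 4 libraries of the Pkm hairpin groups lay above both shScr libraries. The change was 1.07 (adjusted p 3.29e-05, SE 0.146) in shPkm1 and 1.07 (adjusted p 2.42e-05, SE 0.146) in the shPkm2-labelled libraries. Between these groups the difference was -0.0078 (adjusted p 0.967), with a 95% interval of -0.30 to 0.28.

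The fatty acid arm divided by step. Of its 9 genes, 5 rose in shPkm1 and 0 fell, and in the shPkm2-labelled libraries 5 rose and 1 fell. Over all tested genes 31.8% rose and 31.4% fell in the first comparison, and 33.9% and 34.2% in the second. The count of 0 falls in shPkm1 was also 0 at an unadjusted p under 0.05 in edgeR and 0 with DESeq2. In both comparisons with shScr the genes that rose were the 4 desaturases and the elongase, a grouping made after their values were seen. With library totals 6 of 9 were higher in shPkm1 and 7 in the shPkm2-labelled libraries, against 40.5% and 48.2% of all tested genes. The number of these 5 that rose with the shPkm2 label was 3 without shPkm2 replicate 1, 3 without shPkm2 replicate 2 and 4 in a fit of only the compared groups. The 5 genes summed to 364 and 393 TPM in the shScr libraries, 1019 and 949 in shPkm1 and 836 and 747 in those with the shPkm2 label. The 3 groups did not overlap in this sum, and shScr was lowest. In TMM-scaled CPM the 5 genes summed to 1226 and 1159 in shScr, 2317 and 2249 in shPkm1 and 1721 and 1608 with the shPkm2 label.

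Enzymes that supply and build palmitate were mostly not called. Acly, which makes cytosolic acetyl-CoA from citrate, ran from 142 to 188 CPM, with -0.10 (adjusted p 0.372) in shPkm1 and 0.20 (adjusted p 0.0870) in the shPkm2-labelled libraries. The direct difference in Acly of 0.30 (adjusted p 0.0189) was lost in limma on unfiltered log2(TPM + 1) (0.36, adjusted p 0.0556) and without any 1 library of the compared groups, with an adjusted p of 0.0554 to 0.175. Acaca, which makes malonyl-CoA, ran from 94.3 to 114 CPM and was not called in either comparison with shScr, at 0.18 (adjusted p 0.121) and 0.18 (adjusted p 0.114). With library totals Acaca was called higher in both, at 0.37 (adjusted p 0.00878) and 0.50 (adjusted p 9.43e-04), and Acly in the shPkm2-labelled libraries, at 0.52 (adjusted p 6.25e-04). These were 0.54 (adjusted p 0.00301), 0.60 (adjusted p 0.00111) and 0.64 (adjusted p 2.33e-04) in limma on log2(TPM + 1), and Acly was also called in the shPkm2-labelled libraries without shScr replicate 2, at 0.25 (adjusted p 0.0403). Fasn, fatty acid synthase, stood at 321 and 421 CPM in the shScr libraries, 309.7 and 363 in shPkm1, and 382 and 332 in those with the shPkm2 label. All 3 groups overlapped. Fasn was not called in any contrast of the edgeR fit, with 95% intervals of -0.44 to 0.15 in shPkm1 and -0.35 to 0.24 in the shPkm2-labelled libraries against shScr, and without shScr replicate 1 it was -0.33 (adjusted p 0.0109) in shPkm1. Fasn was called higher in the shPkm2-labelled libraries in limma on log2(TPM + 1), at 0.40 (adjusted p 0.0331), close to the median of all genes in that fit.

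Acss2, which makes acetyl-CoA from acetate, was the exception among the supply enzymes. It stood at 26.2 and 26.0 CPM in the shScr libraries, 25.8 and 26.2 in shPkm1, and 9.41 and 9.21 in those with the shPkm2 label. The shScr and shPkm1 libraries lay within 1 CPM of each other, and those labelled shPkm2 far below. The change in the shPkm2-labelled libraries was -1.49 (adjusted p 1.06e-07, SE 0.115) against shScr and -1.48 (adjusted p 1.80e-07, SE 0.114) against shPkm1. In shPkm1 the difference from shScr was -0.0057 (adjusted p 0.967), with a 95% interval of -0.24 to 0.22. It was called higher there in limma on log2(TPM + 1), at 0.37 (adjusted p 0.0264), where the median of all genes was 0.34.

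Elovl6, the elongase that turns palmitate into stearate, rose most of the 33 genes in both comparisons with shScr. It stood at 14.1 and 10.3 CPM in the shScr libraries, 45.8 and 39.2 in shPkm1, and 52.2 and 54.0 in those with the shPkm2 label, and at 2.81 ± 0.375 TPM (SD, n = 2) it had the lowest level per length in shScr. Its groups did not overlap, and both Pkm hairpin groups were far above shScr. The change was 1.81 (adjusted p 2.56e-07, SE 0.142) in shPkm1 and 2.13 (adjusted p 2.36e-08, SE 0.142) in the shPkm2-labelled libraries. The direct difference of 0.32 (adjusted p 0.0479) was lost with DESeq2 (0.32, adjusted p 0.0828), in limma on log2(TPM + 1) (0.36, adjusted p 0.0587), with a minimum mean of 50 counts (0.31, adjusted p 0.0518) and without any 1 library of the compared groups, at a lowest value of 0.21 (adjusted p 0.326) without shPkm1 replicate 2. Fads1, the delta-5 desaturase of polyunsaturated fatty acids, stood at 86.2 and 87.9 CPM in the shScr libraries, 180.2 and 181 in shPkm1, and 189 and 198 in those with the shPkm2 label. Fads2, the delta-6 desaturase, whose gene is on chromosome 19 as well, stood at 80.9 and 81.7 CPM in the shScr libraries, 181 and 190.2 in shPkm1, and 175 and 166 in those with the shPkm2 label. For this pair every library of a Pkm hairpin group lay above both shScr libraries. Fads1 changed by 1.05 (adjusted p 8.00e-07, SE 0.0948) in shPkm1 and 1.15 (adjusted p 1.97e-07, SE 0.0948) in the shPkm2-labelled libraries. Fads2 changed by 1.19 (adjusted p 3.27e-07, SE 0.0964) and 1.07 (adjusted p 4.85e-07, SE 0.0962). Between the Pkm hairpin groups the differences were 0.098 (adjusted p 0.390) and -0.12 (adjusted p 0.289), with 95% intervals of -0.10 to 0.30 and -0.33 to 0.079.

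The stearoyl-CoA desaturases Scd1 and Scd2, which put the first double bond into saturated fatty acids, followed another order. Scd1 stood at 233 and 214 CPM in the shScr libraries, 514 and 476 in shPkm1, and 281 and 255 in those with the shPkm2 label. Scd2 stood at 811 and 765 CPM in the shScr libraries, 1396 and 1362 in shPkm1, and 1024 and 935 in those with the shPkm2 label. Both were highest in shPkm1 and lowest in shScr, without overlap between groups. Scd1 changed by 1.15 (adjusted p 1.08e-06, SE 0.107) in shPkm1 and 0.26 (adjusted p 0.0419) in the shPkm2-labelled libraries, and Scd2 by 0.81 (adjusted p 4.60e-05, SE 0.115) and 0.31 (adjusted p 0.0260). The rises in the shPkm2-labelled libraries were lost for Scd1 in a fit of only the compared groups (0.26, adjusted p 0.0541), without shScr replicate 2 (0.20, adjusted p 0.107) or any 1 library of the Pkm hairpin groups (adjusted p 0.0605 to 0.269), and for Scd2 without shPkm2 replicate 1 (0.25, adjusted p 0.195) or 2 (0.38, adjusted p 0.0541). With library totals they were 0.59 (adjusted p 2.63e-04) and 0.64 (adjusted p 1.51e-04). The direct differences of -0.89 (adjusted p 1.17e-05, SE 0.106) and -0.49 (adjusted p 0.00256, SE 0.114) passed the test. The similar genes Scd3 and Scd4 had at most 3 and 9 counts in any library, and Acat3, a near copy of Acat2, at most 10. Fads3 and Fads6, outside the list followed here, did not share the rise of Fads1 and Fads2 in both Pkm hairpin groups. Fads3 had 7072 and 9458 counts in shScr, 6835 and 7648 in shPkm1 and 3567 and 3303 in the shPkm2-labelled libraries. Fads6 had 66 and 122, 191 and 187, and 68 and 67 counts in the same order. These counts are not scaled to library size.

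**Figure D4:**
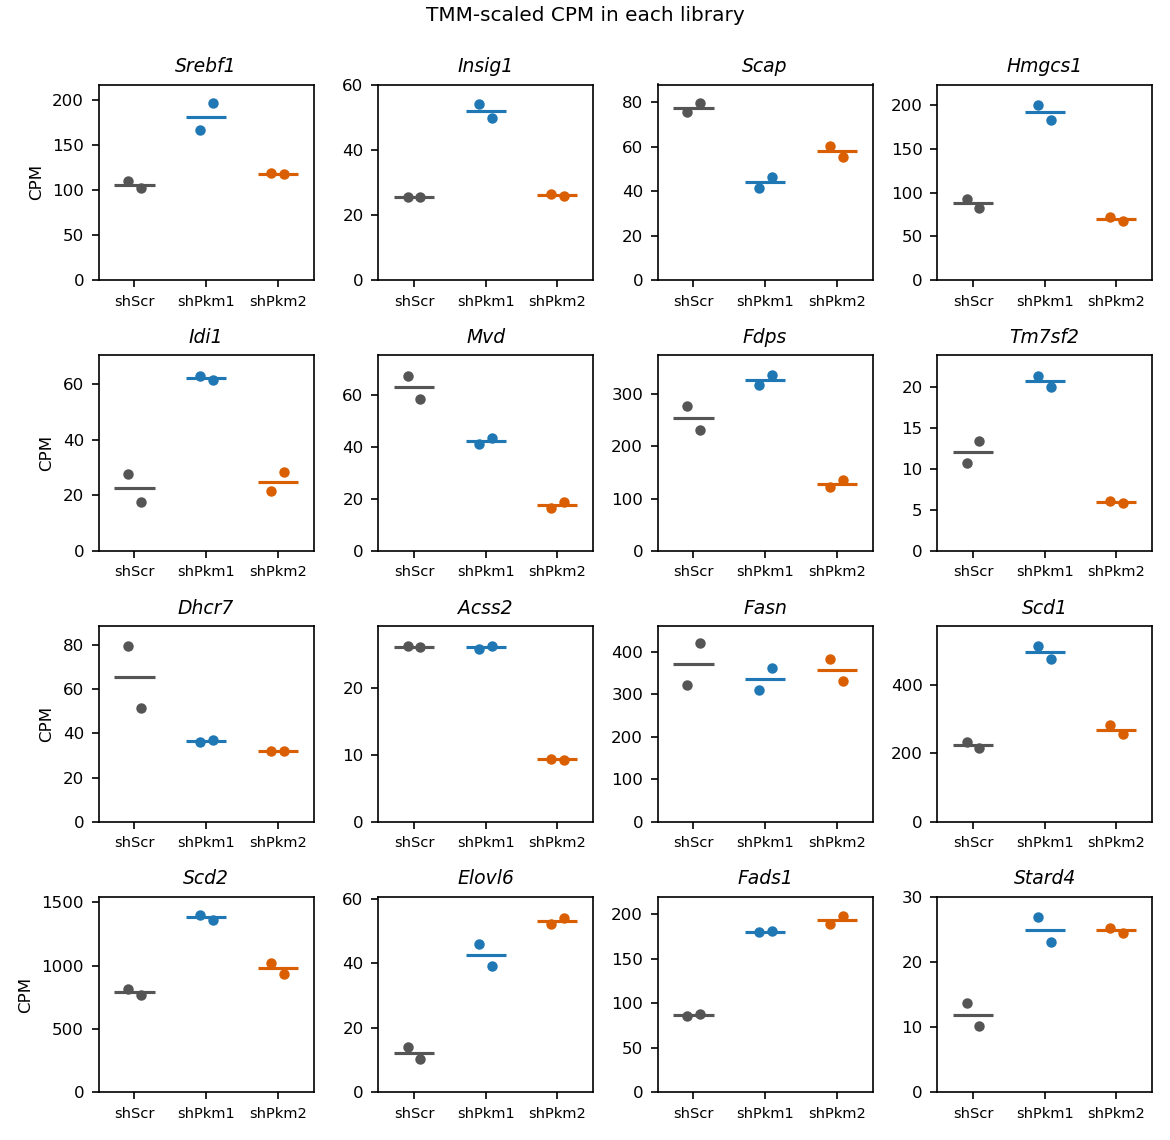
TMM-scaled CPM (vertical axes, starting at 0) of 16 of the genes in each library; points are single libraries and lines are group means. Hmgcs1, Idi1, Insig1 and Scd1 are highest in shPkm1, Mvd and Acss2 are lowest in the shPkm2-labelled libraries, Fasn overlaps between all groups, and Elovl6, Fads1 and Stard4 are higher in both Pkm hairpin groups than in shScr.

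Levels per length show which paralogue dominated. In shScr the order by TPM ran from Fdps, Scd2 (199.6 ± 8.56 TPM, SD, n = 2) and Srebf2 (130.1 ± 18.0) down to Stard4, Hsd17b7 and Elovl6. Scd2 held more TPM than Scd1 in every library, with a ratio of 3.12 ± 0.0563 in shScr, 2.47 ± 0.0906 in shPkm1 and 3.23 ± 0.0161 in the shPkm2-labelled libraries. Srebf2 held more TPM than Srebf1, with a ratio of 3.80 ± 0.410 in shScr, 1.98 ± 0.137 in shPkm1 and 2.67 ± 0.0659 in the shPkm2-labelled libraries. Insig1 over Insig2 was 0.899 ± 0.0984 in shScr, 1.35 ± 0.0483 in shPkm1 and 0.860 ± 0.0534 in the shPkm2-labelled libraries. Fads2 over Fads1 was 2.21 ± 0.00846 in shScr, 2.42 ± 0.0898 in shPkm1 and 2.08 ± 0.154 in the shPkm2-labelled libraries. It ranged from 1.97 to 2.48 over the 6 libraries. The ratios of the Scd, Srebf, Insig and Fads pairs thus all differed between shScr and shPkm1 by more than the spread within either group.

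Of 44 further genes on a list of Srebf processing, isoprenoid, fatty acid and sterol handling functions, 43 were tested. In shPkm1 12 were higher and 12 lower, with a median of 0.0040, against 31.8% and 31.4% of all tested genes. In the shPkm2-labelled libraries 12 were higher and 15 lower, with a median of -0.16, against 33.9% and 34.2%. These counts lie near the shares over all genes and are no result about the list. With library totals they were 15 higher and 7 lower in shPkm1, against 40.5% and 21.0% of all tested genes, and 19 higher and 7 lower in the shPkm2-labelled libraries, against 48.2% and 21.4%. Among the list's genes whose mean count was 50 or more, Slc25a1, the carrier that exports citrate from mitochondria for fatty acid synthesis, rose most in shPkm1, at 1.34 (adjusted p 1.07e-07, SE 0.0965). It was followed by Paqr3, a Golgi anchor of Scap, at 1.31 (adjusted p 6.03e-05), and Erlin1, an endoplasmic reticulum protein that restrains Srebf activation, at 1.07 (adjusted p 4.03e-06). The largest falls among them in shPkm1 were in the late endosomal sterol carrier Stard3 (-1.11), the cholesteryl ester hydrolase Nceh1 (-1.05) and the acyl-CoA synthetase Acsl1 (-1.02). With the same limit, in the shPkm2-labelled libraries Erlin1 (1.09), the lysosomal sterol carrier Npc2 (0.86) and the NADPH-producing malic enzyme Me1 (0.79) rose most. Acsl1 (-1.24), the enoyl-CoA reductase Tecr (-1.14) and Stard3 (-0.98) fell most. Each of these changes had an adjusted p of 5.79e-04 or less. The shScr libraries differed 1.78-fold in Acsl1, whose change without shScr replicate 1 was -0.55 in shPkm1 and -0.77 in the shPkm2-labelled libraries. Below that limit lay Acacb, the mitochondrial acetyl-CoA carboxylase, singled out after its values were seen because its changes were larger in size than the others named from this list. It had 20 and 20 counts in shScr, 91 and 93 in shPkm1 and 12 and 6 in the shPkm2-labelled libraries. The change was 1.99 (adjusted p 6.39e-05, SE 0.294) in shPkm1, -1.47 (adjusted p 0.00547, SE 0.404) in the shPkm2-labelled libraries and -3.46 (adjusted p 1.60e-06, SE 0.334) between them. The fall against shScr was not called without shPkm2 replicate 2, at -1.07 (adjusted p 0.0646), or in limma on unfiltered log2(TPM + 1), at -0.13 (adjusted p 0.102).

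By class, 5 of the 6 genes of sterol storage and transport fell in shPkm1 and 0 rose in edgeR, and the number that rose was 0 at an unadjusted p under 0.05 and 0 with DESeq2. With library totals 4 of 6 were lower. The shares of all tested genes were 31.4% lower and 31.8% higher, or 21.0% lower with library totals. Of the same 6, 3 fell and 1 rose in the shPkm2-labelled libraries, against 34.2% and 33.9%, and with library totals 1 was lower and 1 higher, against 21.4% and 48.2%. Directly against shPkm1, 4 of the 6 were higher in the shPkm2-labelled libraries and 1 lower, where 25.7% and 27.3% of all tested genes were. Of 9 genes of Srebf escort, cleavage and turnover 3 rose and 1 fell in shPkm1, and of 9 isoprenoid branch genes 2 rose and 3 fell. With the shPkm2 label the counts were 3 and 1 for the former and 3 and 2 for the latter. Of 19 tested genes of fatty acid supply, elongation and use, 7 rose and 3 fell in shPkm1, against 31.8% and 31.4%. With the shPkm2 label 5 of the 19 rose and 9 fell, against 33.9% and 34.2%. In the direct contrast 2 were higher and 7 lower, against 25.7% and 27.3%. With library totals the counts for this class were 9 and 2, 8 and 5, and 5 and 6. The shares were then 40.5% and 21.0%, 48.2% and 21.4%, and 33.9% and 21.3%. Between the Pkm hairpin groups 11 of 43 were higher and 12 lower in the shPkm2-labelled libraries, near the 25.7% and 27.3% of all tested genes. Among those whose mean count was 50 or more, Tecr was lower at -1.80 (adjusted p 3.32e-08, SE 0.116), followed by Paqr3 (-1.001) and the acyl-CoA synthetase Acsl3 (-0.94). Npc2 was higher by 1.22 (adjusted p 3.24e-06, SE 0.126), followed by Pdss1 (1.09), an enzyme of ubiquinone side chain synthesis, and Nceh1 (0.88).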

How the data were processed

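The table gave, for 57920 transcripts, estimated counts, TPM and FPKM for each of 6 libraries in 3 groups of 2. The submitters' processing notes name HISAT, StringTie, Bowtie, RSEM, DESeq2 and mm10, with no role or version. Estimated counts were deposited by the authors per transcript and are not all whole numbers, per the file headers and values. TPM and FPKM were also deposited by the authors, and FPKM was not used. The authors' 9 columns of group means were not used.

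Estimated counts were summed per gene (17558 genes, 17445 matched to a symbol) and rounded. They were tested with edgeR 4.0.16 (R 4.3.3), with TMM scaling, filterByExpr (minimum count 10, minimum total 15), 1 quasi-likelihood fit over all 6 libraries, two-sided F-tests and Benjamini-Hochberg adjustment over 12643 genes at 0.05. SE is the absolute log2 fold change over the root of F. Library totals were 18216896 to 19796036 and the biological coefficient of variation was 0.0851. Transcripts (33433 tested) were fitted the same way. Summed TPM levels carry no test. The fit was tested on simulated counts. Alternatives were DESeq2 1.42.0 and its size factors, library totals, other filters, only the compared groups, a replicate block, limma 3.58.1 on log2 TPM with pseudocounts of 1 and 0.1, and each library left out.

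The 33 genes and all lists were chosen with earlier results of these data known. Values in every library are given for the regulators, Hmgcs1, Sqle, Fasn, Scd1, Scd2 and every gene of the 33 called with a change of at least 2-fold in any contrast. Other pathway genes are named if among the 3 largest called rises or falls of a contrast with a mean of at least 50 counts, and Acacb, below that limit, was added after its values were seen.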

Additional observations from a re-analysis of the deposited data

How the results depend on the processing

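Every choice is compared with the TMM-scaled edgeR fit. Library totals without a composition factor moved the median of all tested genes by 0.19 in shPkm1, 0.32 in the shPkm2-labelled libraries and 0.13 between them. On that scale the median of the 33 genes was 0.82 in shPkm1, 0.18 in the shPkm2-labelled libraries and -0.67 between them, with 15 higher and 8 lower in the shPkm2-labelled libraries, against 48.2% and 21.4% of all tested genes. In limma on log2(TPM + 1), log2(TPM + 0.1) and log2(TPM + 1) with no filter on low values, the medians were 0.93, 1.01 and 0.93 in shPkm1, 0.26, 0.29 and 0.26 in the shPkm2-labelled libraries, and -0.72, -0.74 and -0.72 between them. The same fits called 16, 16 and 15 genes higher and 8, 8 and 7 lower in the shPkm2-labelled libraries, against 54.1%, 54.0% and 39.6% of all tested genes higher and 16.8%, 16.9% and 13.4% lower. With no filter, limma called 1 gene lower in shPkm1 and 1 higher in the direct contrast, against 10.6% and 17.6%. With 1 library left out, the median ran from 0.57 to 0.68 in shPkm1, -0.21 to -0.15 in the shPkm2-labelled libraries and -0.83 to -0.75 between them, and the number called higher from 4 to 8 in the shPkm2-labelled libraries and 0 to 3 in the direct contrast, where 27.7% to 33.7% and 17.3% to 30.5% of all tested genes were higher. A group left with 1 library was assumed to vary like the others. Changes of sign with library totals were, in shPkm1, Acly 0.089, Acss2 0.19, Ebp 0.070, Fasn 0.044, Srebf2 0.040; in the shPkm2-labelled libraries, Fasn 0.26, Hmgcs1 0.0071, Hsd17b7 0.050, Lss 0.18; and in the direct contrast Fads2 0.0078, Stard4 0.12, and the median of the desaturases with Elovl6 there was 0.00776. In limma on TPM, with pseudocounts of 1 and 0.1, they were Acly 0.28 and 0.29, Acss2 0.37 and 0.39, Ebp 0.27 and 0.28, Fasn 0.25 and 0.26, Srebf2 0.23 in shPkm1, Fasn 0.40 and 0.41, Hmgcs1 0.13 and 0.14, Hsd17b7 0.14 and 0.18, Lss 0.26 and 0.29, Msmo1 0.052 and 0.053, Pmvk 0.031 and 0.032, Scap 0.041 and 0.043, Srebf2 0.10 in the shPkm2-labelled libraries and Stard4 0.073 and 0.080 in the direct contrast. With 1 library left out, values that changed sign ran over Acss2 -0.011 to 0.019, Ebp -0.24 to 0.012, Fasn -0.33 to 0.068, Fdft1 -0.039 to 0.29 in shPkm1, Fasn -0.24 to 0.16, Idi1 -0.15 to 0.51, Sqle -0.042 to 0.20 in the shPkm2-labelled libraries and Acaca -0.056 to 0.040, Fasn -0.032 to 0.21, Stard4 -0.12 to 0.099 in the direct contrast. Under other filters, size factors, DESeq2 or only the compared groups, signs changed for Acss2 in shPkm1 and Acaca in the direct contrast, with values of 0.0093, 0.0065, 0.0048 and -0.0040, -0.0078, -0.0084. The cause of these changes was not tested. Replicate numbers are shared between groups, but deviations of same-numbered libraries correlated at -0.026, 0.042 and 0.053, over 12643 genes, so the numbers were not taken as pairs. With the replicate number as a block, 23 and 3 of the 33 genes were higher and lower in shPkm1, 7 and 15 in the shPkm2-labelled libraries, and 3 and 23 in the direct contrast, and over all tested genes 31.6% and 31.1%, 33.8% and 34.0%, and 25.6% and 27.3%. With 2 libraries a group, an exact permutation test of a single gene cannot go below a p of 0.333.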
